A study of Homo sapiens with 4 samples.

Results

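Chromosome 17 was described arm by arm in lamin B1 ChIP-seq profiles of 2 human prostate cancer cell lines. All 40 kb bins of the chromosome with a value in both lines were taken. Bins that ended at or under position 22200000 were counted as short arm and bins that started at or over position 25300000 as long arm. This gave 553 bins on the short arm and 1391 on the long arm, or 1944 of the 71436 bins of that width with a value in both lines genome-wide. Positions are in hg19 and counted from 1.

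Both are established lines from metastases, LNCaP from a lymph node metastasis of prostate adenocarcinoma and VCaP from prostate cancer that had spread to bone. Both lines were grown in serum-containing medium with no drug treatment named in the labels, fixed with formaldehyde and sonicated, and DNA bound to lamin B1 was recovered with an antibody. Per line, 1 library of antibody-bound DNA and 1 of input DNA, made without antibody, were sequenced. The deposited value of a bin is the log2 enrichment of ChIP over input, and a hidden Markov model label puts each bin in the associated or the other state. With 1 library per group no difference below has a replicate check and no test was made. Errors are the SD over bins of the same library pair, or the noise between bins. Read numbers were not analysed here, so the depth behind a bin is unknown.

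Lamin B1 is a filament protein of the nuclear lamina, the meshwork that lines the inner nuclear membrane. Chromatin that touches this meshwork forms lamina-associated domains, which are typically long, poor in genes, rich in A and T and low in transcription, and they alternate with gene-rich stretches in the nuclear interior. Chromosome 17 is short and dense in genes. Its short arm carries the nuclear receptor corepressor gene NCOR1. Its long arm carries BRCA1, which acts in DNA repair, the receptor tyrosine kinase gene ERBB2, the type I keratin genes, the HOXB cluster with the prostate homeobox gene HOXB13, and SOX9, which encodes a developmental transcription factor and lies beside a long gene desert. These genes are background only. The gene table at hand is of another build (GRCh38), so no gene was placed in a bin and the base composition of the bins was not analysed here.

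Both arms were higher in VCaP than in LNCaP, and in both lines the short arm was higher than the long arm. On the short arm the mean log2 enrichment was 0.09 ± 0.26 (SD over 553 bins) in LNCaP and 0.57 ± 0.33 in VCaP. On the long arm it was -0.10 ± 0.33 (SD over 1391 bins) in LNCaP and 0.41 ± 0.42 in VCaP. Of these 4 means, that of the long arm in LNCaP was below 0. Genome-wide the means were 0.07 in LNCaP and 0.20 in VCaP, so LNCaP was close to its genome mean on the short arm and under it on the long arm, whereas VCaP was above its own on both. Enrichment was over 0 in 64.2% of short-arm and 38.4% of long-arm bins in LNCaP, where the genome share was 56.9%, and in 93.9% and 81.8% in VCaP, where it was 66.9%.

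The short arm exceeded the long arm by 0.19 in LNCaP and by 0.16 in VCaP, on the log2 scale. By medians the excess was 0.18 and 0.14. The arms overlapped widely in each line: the interquartile range of LNCaP was -0.08 to 0.24 on the short arm and -0.28 to 0.10 on the long arm, and that of VCaP was 0.39 to 0.79 and 0.11 to 0.73. The noise of a single bin, from the differences between neighbours, was 0.07 in LNCaP and 0.12 in VCaP on both arms. Neighbours share averaged entries, and from bins 3 apart, which do not, it was 0.13 in LNCaP on both arms, and in VCaP 0.26 on the short arm and 0.25 on the long arm.

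The VCaP minus LNCaP difference was 0.47 ± 0.32 (SD over bins) on the short arm and 0.51 ± 0.50 on the long arm, against a genome mean of 0.12. By medians the difference was 0.44 on the short arm and 0.56 on the long arm. Their spread was unlike. On the short arm the difference ran from -0.36 to 1.58, and on the long arm from -0.86 to 2.84. Part of the difference depends on where each line has its zero: the genome median was 0.06 in LNCaP and 0.19 in VCaP, and subtracting these left 0.34 on the short arm and 0.38 on the long arm.

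**Figure D1:**
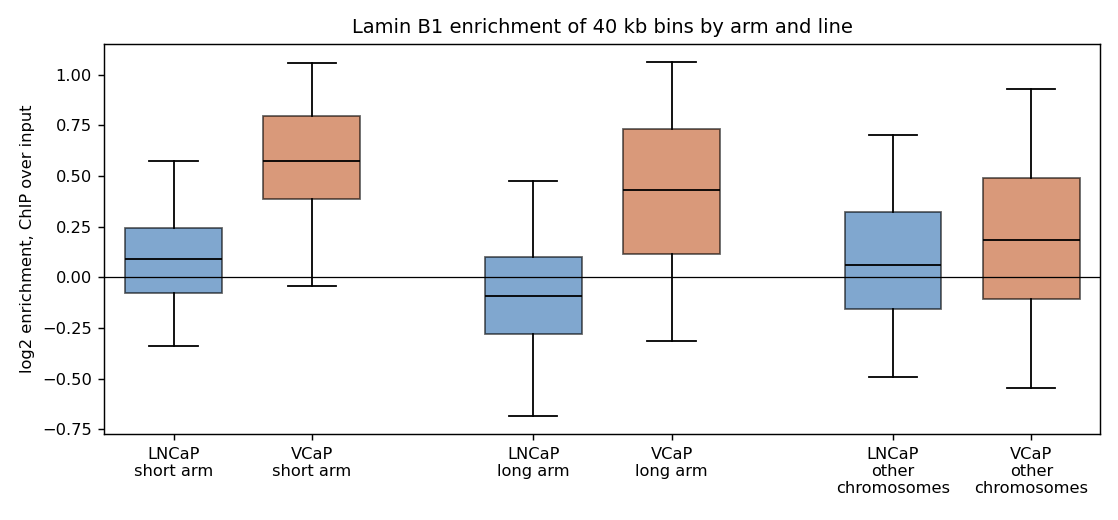
Log2 lamin B1 enrichment of 40 kb bins (y axis) for the short arm, the long arm and all other chromosomes in LNCaP (blue) and VCaP (orange). Boxes span the quartiles with the median as a line, and whiskers span the 5th to the 95th percentile of bins. VCaP medians of 0.57 and 0.43 on the arms lie above the LNCaP medians of 0.09 and -0.09.

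Counted bin by bin, VCaP exceeded LNCaP by more than 0.5 in 240 short-arm bins (43.4%) and 750 long-arm bins (53.9%). Genome-wide 21.3% of bins did so. LNCaP exceeded VCaP by more than 0.5 in 0 of the short-arm bins and 40 of the long-arm bins (2.88%), against 9.33% genome-wide. A difference over 1 in favour of VCaP was seen in 30 short-arm bins (5.42%) and 208 long-arm bins (15.0%), where the genome share was 3.83%. The larger differences were thus more frequent on the long arm. The chromosome had been chosen by these same deposited log2 values, so the counts describe it and carry no test.

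Beside the other chromosomes, both arms were among those with the highest VCaP signal. Of 41 arms with at least 200 bins, the short arm of chromosome 17 ranked 5th and its long arm 8th by mean VCaP enrichment. By mean LNCaP enrichment they ranked 19th and 37th. The long arm was thus near the low end in one line and near the high end in the other. The long arms of chromosomes 19 (40th in LNCaP, 3rd in VCaP), 22 (36th, 4th) and 20 (33rd, 6th) were split likewise. By VCaP minus LNCaP difference the long arm of chromosome 17 ranked 5th and its short arm 6th, and the highest was the long arm of chromosome 19, at 0.84. The short arm of chromosome 17 ranked 39th by the SD of that difference over its bins, which means that the VCaP excess was more even along it than along all but 2 of the 41 arms.

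A higher short arm in both lines was shared by few chromosomes. Of 18 chromosomes with both arms measured, 5 had the short arm higher in both lines, and 3, including chromosome 17, had it higher by more than 0.1 in both. Chromosome 8 had a larger excess of its short arm than chromosome 17 in both lines, at 0.51 in LNCaP and 0.18 in VCaP. On chromosome 20 the arms differed by 0.01 in LNCaP, and in VCaP the short arm was lower by 0.23 (difference -0.23).

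**Figure D2:**
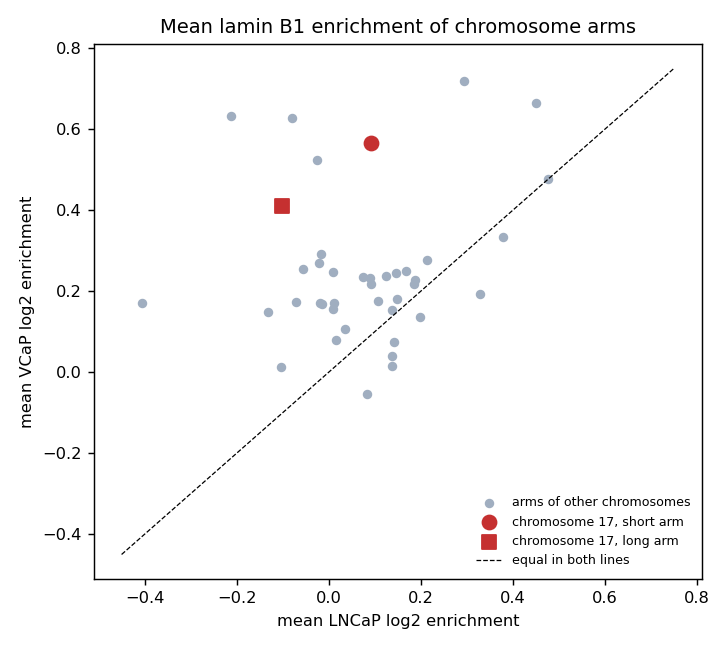
Mean log2 enrichment of chromosome arms in LNCaP (x axis) and VCaP (y axis), 1 point per arm of at least 200 bins, with the dashed line marking equal values. The short arm of chromosome 17 lies at 0.09 and 0.57 and its long arm at -0.10 and 0.41, both above the line.

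The state labels gave the same order of arms and lines. In LNCaP 220 of the 553 short-arm bins (39.8%) and 220 of the 1391 long-arm bins (15.8%) were in the associated state, where the genome share was 37.9%. In VCaP 505 short-arm bins (91.3%) and 955 long-arm bins (68.7%) were associated, against 44.4% genome-wide. Nearly the whole short arm therefore carried the associated label in VCaP. Among the 41 arms it ranked 3rd by that share, below the arms of chromosome 19, of which the short arm had the highest share at 96.9%. The long arm of chromosome 17 ranked 39th by its LNCaP share and 8th by its VCaP share.

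Bins associated only in VCaP were the most frequent class on both arms, with 296 bins on the short arm (53.5%) and 809 on the long arm (58.2%), where the genome share was 23.8%. Bins associated only in LNCaP numbered 11 on the short arm (1.99%) and 74 on the long arm (5.32%), against 17.2% genome-wide. The remaining classes separated the arms. Both lines were associated in 209 short-arm bins (37.8%) but in 146 long-arm bins (10.5%), with 20.6% genome-wide, and neither line in 37 short-arm bins (6.69%) but in 362 long-arm bins (26.0%), with 38.4% genome-wide.

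On the short arm, bins in the LNCaP state were mostly in the VCaP state as well. There 95% of the LNCaP-associated bins were associated in VCaP, beside 88.9% of the bins outside the LNCaP state. On the long arm these shares were 66.4% and 69.1%, and over all bins of the table they were 54.5% and 38.2%. So on the long arm a bin in the LNCaP state was in the VCaP state about as often as any other bin, and on the short arm both shares were near the top of the scale. In the other direction, 41.4% of the VCaP-associated bins of the short arm and 15.3% of those of the long arm were associated in LNCaP, against 46.5% over the table.

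The VCaP-only label stood for unlike enrichment on the arms. On the short arm the LNCaP mean of these bins was -0.04, the VCaP mean was 0.58 and the difference was 0.61. On the long arm the values were -0.18, 0.62 and 0.80, and over all bins of the table they were -0.12, 0.56 and 0.67. The VCaP level was close on both arms, and the LNCaP level was lower on the long arm. Bins associated in both lines had LNCaP means of 0.33 on both arms and VCaP means of 0.70 on the short arm and 0.65 on the long arm. Over all bins of the table the means of that class were 0.45 in LNCaP and 0.60 in VCaP.

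Along the chromosome the profile was followed in windows of 1 Mb, each the mean of at least 20 bins. The short arm gave 22 windows and the long arm 56. VCaP was higher in all 22 short-arm windows and in 48 of the long-arm windows, and LNCaP was higher in the other 8 long-arm windows. Some of these differences were small. In either direction, 21 short-arm and 47 long-arm windows differed by more than 2 noise SD. The zero of each line is not fixed by the sources, and with both genome medians subtracted LNCaP was higher in 1 short-arm window and 13 long-arm windows. A VCaP excess over 0.5 was found in 10 short-arm windows (45.5%) and 33 long-arm windows (58.9%), and genome-wide in 18.3% of windows. With the genome medians subtracted, 7 short-arm and 27 long-arm windows had such an excess. LNCaP means ranged from -0.27 to 0.54 on the short arm and from -0.72 to 0.55 on the long arm. VCaP means ranged from 0.32 to 0.77 and from -0.22 to 0.91. All short-arm windows thus had a VCaP mean above 0, and 5 of the long-arm windows did not.

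**Figure D3:**
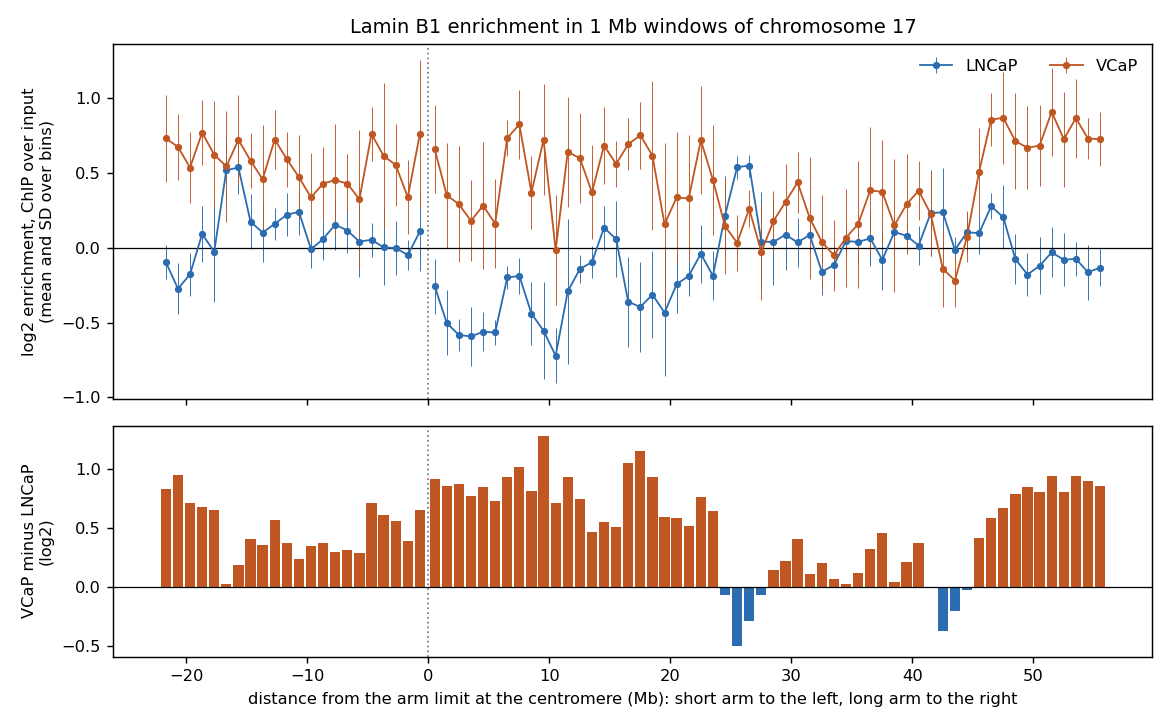
Upper panel: mean log2 enrichment of 1 Mb windows (y axis; bars are the SD over the bins of a window) in LNCaP (blue) and VCaP (orange) against distance from the arm limit at the centromere in Mb (x axis; short arm to the left, long arm to the right). Lower panel: VCaP minus LNCaP difference of the same windows; 8 long-arm windows fall below 0.

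At the end of the short arm the lines were far apart. The window from 1000001 to 2000000 had the lowest LNCaP value of the arm, -0.27 ± 0.17 (SD over 25 bins), and 0.67 ± 0.22 in VCaP. Its difference of 0.95 was the largest of the arm, with VCaP higher in 25 of 25 bins. It lay in the longest VCaP-only run of the short arm, from 80001 to 3000000, in which all 73 bins were associated in VCaP and none in LNCaP. The mean over this run was -0.18 ± 0.16 in LNCaP and 0.64 ± 0.26 in VCaP. Of its bins, 70 differed by more than 0.5, and 5 lay beside the end of the table. Such runs are selected by their labels. Of all VCaP-only bins, 60.5% on the short arm and 66.0% genome-wide differed by more than 0.5.

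A few megabases further in, the lines met. The short-arm window with the highest LNCaP value, from 6000001 to 7000000, had 0.54 ± 0.18 in LNCaP and 0.72 ± 0.30 in VCaP, and all 25 bins were associated in both lines. Its neighbour from 5000001 to 6000000 had the smallest difference of the arm, 0.03, with 0.52 in LNCaP and 0.54 in VCaP, which is within the noise SD of 0.07 for a window's difference. Both windows belong to the longest LNCaP domain of the short arm, a run of 64 associated bins from 4560001 to 7120000, of which 58 were associated in VCaP. The second longest, 55 bins from 9680001 to 11880000, was associated in VCaP throughout, as was the third, 23 bins from 14320001 to 15240000. Each of these 3 domains was higher in VCaP, by 0.17, 0.35 and 0.35. With the genome medians subtracted, the first of these was 0.03, under its noise SD of 0.04, and the others were 0.22 and 0.21.

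The VCaP domains of the short arm were long. The arm held 10 associated runs in each line. Their median length was 580 kb in LNCaP and 1780 kb in VCaP, with totals of 8.80 Mb and 20.2 Mb. The longest VCaP run measured 4120 kb, from 80001 to 4200000, and 14 of its 103 bins were associated in LNCaP. VCaP-only runs of at least 5 bins numbered 14. The pair of LNCaP-only runs differed by -0.21 (noise SD 0.14) from 5160001 to 5400000 and by -0.12 (noise SD 0.15) from 16520001 to 16720000. Both runs were selected by their labels, and all LNCaP-only bins of the short arm had a mean difference of -0.17.

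On the long arm LNCaP had as many associated runs as on the short arm, 10, spread over 55.6 Mb instead of 22.1 Mb. This was 1.80 runs per 10 Mb on the long arm and 4.52 on the short arm, where the genome had 3.38. VCaP had 26 runs on the long arm, or 4.67 per 10 Mb, with a genome rate of 4.43. The total length of the long-arm runs was 8.80 Mb in LNCaP and 38.2 Mb in VCaP. With the deposited states LNCaP thus had fewer runs on this arm than VCaP. This order of the counts turned with other definitions of the state: calling enrichment over 0 associated gave 72 runs in LNCaP and 57 in VCaP, and a running median of 5 bins over 0 gave 38 and 29.

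When the arms were cut into 5 Mb sections from their lower coordinate, the long arm fell into 3 stretches, which were delimited after their values were seen. In sections 1 to 5, from 25320001 to 50320000, the LNCaP mean was -0.30 ± 0.33 and the VCaP mean 0.46 ± 0.41 (SD over 621 bins). In sections 6 to 9, from 50320001 to 70320000, the means were 0.10 ± 0.25 and 0.16 ± 0.34 (500 bins). In sections 10 to 12, from 70320001 to 81120000, they were -0.02 ± 0.21 and 0.75 ± 0.28 (270 bins). The difference between the lines was 0.76 beside the centromere, 0.06 in the middle and 0.77 toward the end of the arm. With the genome medians subtracted these were 0.63, -0.07 and 0.64, so the sign in the middle depends on the zero of each line.

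The stretches contributed unequally to the arm difference in each line, which is a description of stretches picked by their values. Without sections 1 to 5 of the long arm the short-arm excess was 0.04 in LNCaP and 0.20 in VCaP, and with them it was 0.19 and 0.16. Without sections 6 to 9 it was 0.31 in LNCaP and 0.01 in VCaP. Without sections 10 to 12 it was 0.21 and 0.24. The middle stretch was equal to the short arm in LNCaP (short minus stretch -0.0050) and 0.41 below it in VCaP. The stretch toward the chromosome end was 0.11 below the short arm in LNCaP, and in VCaP the short arm lay under it (short minus stretch -0.19).

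In the stretch beside the centromere LNCaP was low almost throughout. Sections 1 and 2 had 0 associated bins of 125 and of 123 in LNCaP, whereas 68.8% and 89.4% of the bins were associated in VCaP. The lowest LNCaP window of the chromosome, from 35320001 to 36320000, had -0.72 ± 0.18 in LNCaP and -0.01 ± 0.37 in VCaP, with 7 of 25 bins associated in VCaP. The window just before it, from 34320001 to 35320000, had the largest VCaP excess of the chromosome, 1.28, with -0.55 ± 0.32 in LNCaP and 0.72 ± 0.37 in VCaP over 23 bins. A wider LNCaP entry from 34520001 to 34600000 was left out of this window. Windows next to each other, both low in LNCaP, were thus far apart in VCaP.

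Long VCaP-only runs filled much of this stretch. From 40880001 to 44160000, 82 bins were associated in VCaP only, with means of -0.32 ± 0.29 in LNCaP and 0.73 ± 0.21 in VCaP, and all 82 differed by more than 0.5. From 31280001 to 33920000, 66 bins had means of -0.23 ± 0.15 and 0.70 ± 0.24, and 64 of them differed by more than 0.5. Both runs were selected by their labels, and 80.6% of all VCaP-only bins on the long arm and 66.0% genome-wide differed by that much. The run from 40880001 lies in the second longest VCaP domain of the arm, from 39360001 to 44160000. That domain held 20 bins associated in LNCaP among its 120.

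The windows in which LNCaP was the higher line lay in the middle stretch and in the window just before it, from 49320001 to 50320000 (difference -0.07, noise SD 0.07). The window from 50320001 to 51320000 had an LNCaP mean of 0.54 ± 0.08 and a VCaP mean of 0.03 ± 0.19, with LNCaP higher in 25 of 25 bins. Its difference of -0.505 (noise SD 0.07) was the only window difference of the chromosome under -0.5, and 5.72% of windows genome-wide were under that cut. It passed the cut by less than its noise SD, and with the genome medians subtracted 2 long-arm windows were under -0.5. The next window, from 51320001 to 52320000, had the highest LNCaP value of the chromosome, 0.55 ± 0.07, with 0.26 ± 0.12 in VCaP. Both lie in the longest LNCaP domain of the chromosome, 80 bins from 49560001 to 52760000, of which 30 were associated in VCaP. The longest LNCaP-only run of the arm, 44 bins from 50000001 to 51760000, lay inside it with means of 0.53 and 0.03 and a difference of -0.50 (noise SD 0.05). This run was selected by its labels, so a negative difference is partly built in. All LNCaP-only bins had a mean difference of -0.45 on the long arm and -0.44 genome-wide.

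A further LNCaP-only run, 14 bins from 67600001 to 68160000, had an LNCaP mean of 0.47 ± 0.16 and a VCaP mean of -0.03 ± 0.25, so that the difference was -0.49 (noise SD 0.09). The last of the 3 on the long arm, 6 bins from 52520001 to 52760000, differed by -0.15 (noise SD 0.14). These runs too were selected by their labels. Beyond the second run came the lowest VCaP window of the chromosome, from 68320001 to 69320000, with -0.22 ± 0.18 in VCaP and -0.01 ± 0.09 in LNCaP, and neither line was associated in any of its bins. Over the whole middle stretch 232 of 500 bins (46.4%) were associated in neither line, from 30 of 125 in section 6 to 83 of 125 in section 7, and VCaP was associated in 40.4%. Genome-wide 38.4% of bins were associated in neither line and 44.4% in VCaP, so the stretch was not far from the genome in either share.

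Toward the end of the long arm VCaP was associated without a break. A single VCaP domain of 271 bins, 10840 kb long, ran from 70280001 to 81120000, and it was the longest of the chromosome in either line. Its means were -0.02 ± 0.21 in LNCaP and 0.75 ± 0.29 in VCaP, and 228 bins differed by more than 0.5. The domain was selected by its VCaP label. Genome-wide 66.0% of VCaP-only bins and 18.5% of bins associated in both lines differed by more than 0.5. Of all bins genome-wide, associated or not, 21.3% had a VCaP excess over 0.5. LNCaP was associated in 50 of the 271 bins, 42 of which formed its second longest domain of the arm, from 71320001 to 73000000. This was a place where both lines were high, at 0.30 ± 0.11 in LNCaP and 0.93 ± 0.20 in VCaP. After it, all 203 bins from 73000001 to 81120000 were associated in VCaP only, the longest run of that kind on the chromosome, with means of -0.10 and 0.74. The highest VCaP window of the chromosome, from 76320001 to 77320000, lay in this run with 0.91 ± 0.29 in VCaP and -0.03 ± 0.17 in LNCaP.

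The means at both chromosome ends were close. The short-arm section at the end, from 80001 to 5000000, had means of -0.10 in LNCaP and 0.67 in VCaP, and the last full section of the long arm, from 75320001 to 80320000, had -0.09 and 0.78. Their states differed in LNCaP, with 20.3% of bins associated at the short-arm end and 0 in the long-arm section, while VCaP had 97.6% and 100%. The sections beside the centromere were further apart. From 20000001 to 22200000 on the short arm the means were 0.06 and 0.56, and from 25320001 to 30320000 on the long arm they were -0.50 and 0.35. The values at the arm limits lay on either side of a stretch without 40 kb bins, from 22280001 to 25240000. The last short-arm bin had 0.25 in LNCaP and 0.30 in VCaP, and the first long-arm bin had -0.22 and 0.80. The 4 bins between the limits, which belong to neither arm and flank that stretch, had 0.44, 0.43, -0.10 and -0.22 in LNCaP. In VCaP they had 0.49, 0.93, 0.28 and 0.50. Those just after the stretch average in wider entries that cover it.

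**Figure D4:**
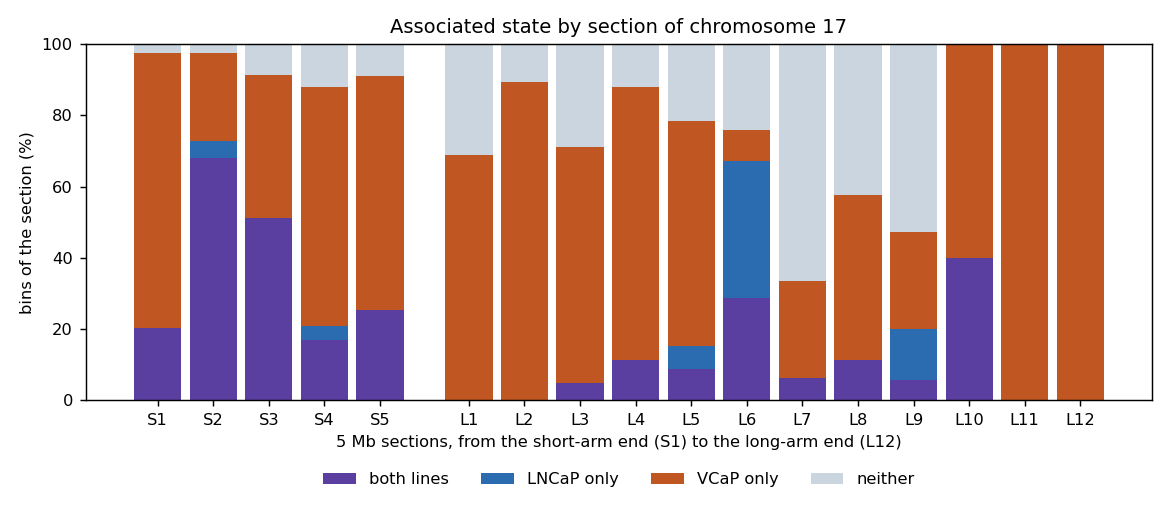
Share of bins (y axis, %) associated in both lines, in LNCaP only, in VCaP only and in neither, for 5 Mb sections from the short-arm end (S1) to the long-arm end (L12); S5 and L12 are shorter, with 55 and 20 bins. VCaP-only bins dominate except in S2 and S3, where both lines are associated in 85 and 64 of 125 bins, and in L6, L7 and L9.

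Whether the lines rose and fell together was described by correlation across bins, without a test, since neighbouring bins share averaged entries and all bins share their libraries. Pearson r was 0.45 on the short arm (553 bins; Spearman rho 0.40) and 0.15 on the long arm (1391 bins; rho 0.13), and 0.28 over all bins of the table. The value depended on the scale. Between the means of 1 Mb windows r was 0.08 on the short arm (22 windows) and -0.09 on the long arm (56 windows), and 0.17 over the genome (2830 windows). After the mean of its window was subtracted from each bin, r was 0.67 and 0.46, with 0.48 over the genome. On both arms r was higher within windows than between them, as it was over the genome.

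Within sections r was not split by scale. In each of the 17 sections r was positive, from 0.15 in long-arm section 5 to 0.87 in section 12, which has 20 bins. Broad levels were also more spread on the long arm. The SD of the 1 Mb window means was 0.19 in LNCaP and 0.15 in VCaP on the short arm, and 0.27 and 0.29 on the long arm. Within windows the SD was alike on both arms, at 0.19 and 0.20 in LNCaP and 0.31 in VCaP. The arms thus differed more in the spread between windows than within them.

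**Figure D5:**
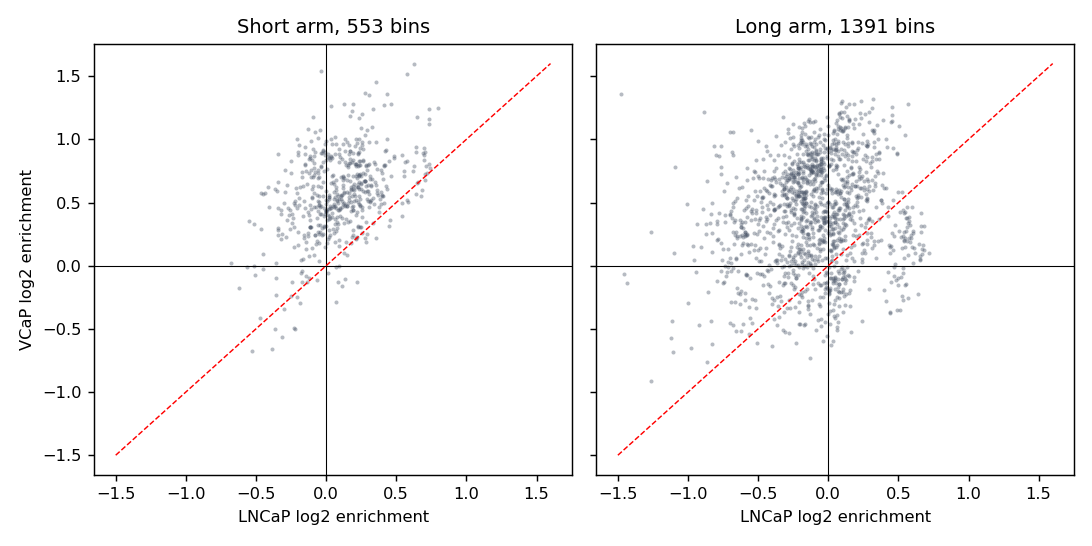
LNCaP (x axis) against VCaP (y axis) log2 enrichment of the 553 short-arm bins (left) and the 1391 long-arm bins (right), with the dashed red line marking equal values. Most points lie above the line, and the long arm adds a group of bins with LNCaP near 0.5 and VCaP near 0 that the short arm lacks.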

How the data were processed

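Lamin B1 ChIP and input DNA of LNCaP and VCaP were sequenced, with 1 library each, grouped by the sample titles. The submitters' processing notes name hg19 and STAR, without a version or role. The scaling of ChIP to input and the settings of the state model are not given in the sources used here. The deposited values are log2 enrichment of ChIP over input per 40 kb bin, per the file names, with 1 of 2 state labels (AD or iAD). AD, the state of higher enrichment, is called associated. The first 2 entries of the chromosome had no value.

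The deposited log2 values behave as a trailing mean of 3 entries. In entries wider than 40 kb the median absolute value was 0.21 in LNCaP and 0.33 in VCaP, and 0.0046 and 0.0083 after that mean was undone. Positions of borders therefore lie about 1 bin downstream, and neighbours are dependent. Wider entries were left out.

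Noise is the scaled (1.4826) median absolute difference between bins, divided by the square root of 2. Neighbours were used for single bins. For windows and runs, bins 3 apart were used, with 3 bins counted as 1 value. Runs are adjacent bins in a state. Windows hold 25 bins. Named were the 3 longest domains per arm and line, the 3 longest runs associated in 1 line only (at least 5 bins), and the windows with extreme means or differences. Arms of other chromosomes were split at their widest gap. Chromosomes 13, 14, 15, 21 and 22 were kept whole as long arms, since their widest gap need not be the centromere, and Y was left out. A list of 46 genes of chromosome 17 had been drawn up, 45 of them found by symbol and 1 by an older symbol in RefSeq (GRCh38), and was not placed on bins. The chromosome, lists and rules were chosen with earlier results of these data known.

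Run finding was checked with runs planted on the 1391 long-arm bins. The undone mean was checked on 40 simulated chromosomes with as many entries as chromosome 17 has in LNCaP. All 138 planted runs were recovered (138 found), and the undone mean had a median error of at most 0.019. Matplotlib 3.10.9, scipy 1.17.1, pandas 2.3.3 and numpy 2.4.6 ran under Python 3.11.15.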

Additional observations from a re-analysis of the deposited data

Results flagged for a closer look

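Opposite signs of the mean enrichment, below 0 in LNCaP and above 0 in VCaP, were found for 13 of the reported arms, sections and windows. The named windows were picked as extremes, so opposite signs in them are partly built in. Among all 1 Mb windows, 7 of 22 on the short arm and 31 of 56 on the long arm had these signs. So did 31.1% of short-arm and 50.5% of long-arm bins, against 23.2% of bins genome-wide. With 1 library pair per line the difference was not tested. It was 0.51 for the whole long arm and 0.76 for the short-arm section at the chromosome end. For long-arm sections 1 to 5 it was 0.85, 0.95, 0.68, 0.85 and 0.49, for section 7 it was 0.16, and for sections 11 and 12 it was 0.88 and 0.86. Among the named windows it was 0.95 from 1000001 to 2000000, 1.28 from 34320001 to 35320000 and 0.94 from 76320001 to 77320000. After subtraction of the genome median of each line, 12 of the 13 kept opposite signs, and section 7 did not (-0.08 in LNCaP and -0.05 in VCaP).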

How the results depend on the processing

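For 27 results 133 alternative values were computed, of which 95 stayed within a limit, 37 moved and 1 reversed. The limit was the neighbour noise of a single bin for means, the 95% binomial interval of a share (exact, counting bins as independent), 0.1 in r or 1.5 times a count. For the mean of an arm the noise of a single bin is a wide limit. The short minus long gap of the VCaP minus LNCaP difference counted as unmoved, at -0.04 by means and -0.12 by medians. The short arm kept the higher mean in both lines, and both arms kept a VCaP excess, under each of the 7 alternatives run for them. These are not 7 separate checks of the arm order. Centring subtracts 1 constant per line, so the short-arm excess had to stay at 0.19 in LNCaP and 0.16 in VCaP. Adding wider entries left the short-arm means unchanged, since none lie on that arm. Undoing the mean of 3 entries, or keeping 1 bin in 3, nearly preserves an arm mean by construction. Centring on the genome median moved the VCaP means to 0.37 (short) and 0.22 (long), the VCaP excess to 0.34 and 0.38, the bins past 0.5 in favour of VCaP to 30.2% and 46.0%, and those in favour of LNCaP on the long arm to 5.25%, where the genome had 14.8% and 15.6% under the same centring. Quantile normalization moved the excess to 0.32 and 0.39. A cut of 1 in place of 0.5 cannot raise a share, by its construction. It left 5.42% of short-arm and 15.0% of long-arm bins in favour of VCaP, against 3.83% genome-wide. In favour of LNCaP it left 0% of long-arm bins, against 0.735% genome-wide. Undoing the mean of 3 entries gave 0.723% of short-arm bins in favour of LNCaP.

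With enrichment over 0 as the associated state, LNCaP had 64.2% of short-arm and 38.4% of long-arm bins and VCaP 93.9% and 81.8%. LNCaP then had 37 and 72 domains and VCaP 57 on the long arm, with 0 and 7 LNCaP-only regions and 6 VCaP-only regions on the short arm. Smoothing by a running median of 5 bins first gave shares of 65.6% and 37.6% in LNCaP and 94.4% and 83.5% in VCaP, with 19 and 38 LNCaP domains (29 VCaP domains on the long arm), 0 and 9 LNCaP-only regions and 9 VCaP-only regions on the short arm. The cause was not tested. A minimum of 10 bins left 0 LNCaP-only and 9 VCaP-only regions on the short arm. The r of means of 25 bins was 0.079 on the short arm and reversed to -0.095 on the long arm. Subtracting window means, added after seeing the data, gave 0.67 and 0.46. No paired analysis was possible because no group has a second library. Read depth was not at hand, so bin noise is the only limit on single regions.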
